A study of Arabidopsis thaliana with 8 samples.

Results

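Pentatricopeptide repeat (PPR) proteins form one of the largest protein families of land plants. They are encoded in the nucleus, and most are imported into chloroplasts or mitochondria, where their helical repeats bind organelle RNA in a sequence-specific way. P-class members act in the stabilisation, end processing, intron splicing and translation of organelle transcripts, whereas members of the PLS class mostly guide RNA editing. The 5 loci grouped as P-class PPR genes were AT5G15280, AT2G19280, AT1G79080, AT4G21170 and AT5G39980. Each was taken as the array row whose annotation names that gene and no other. There was 1 such row for each gene, among 692 rows that name a single gene and 3439 rows in all. The reference gene table gave only a locus code for each of the 5, so their class was taken as given and no role is stated for a single member.

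The samples were wild-type Arabidopsis thaliana plants of ecotype Columbia 0, a standard laboratory accession. Of the 8 samples of total RNA, 4 came from plants aged 1 week, the seedling stage, and 4 from plants aged 4 weeks. The labels do not give the organs taken, the growth conditions, or whether each sample was a separate plant, and no mutation or treatment is named for either age. The array signal is in arbitrary units, with sums over all rows from 3070 to 3374 per sample and 11.3% to 13.6% of the rows of a sample at exactly 0. Deviations from the age means correlated positively between samples 1 and 2 at 1 week and samples 1 and 2 at 4 weeks. This was also so for samples 3 and 4, and no label says why.

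The ages were compared to find which transcripts differ in level between seedlings and older plants. All 5 genes were measured above 0 in all 8 samples, and the mean signal of each was higher at 4 weeks than at 1 week. The largest difference was that of AT5G15280, with a 3.05-fold higher normalised signal, and the smallest that of AT5G39980, with 1.32-fold. With a constant added before the logarithm, as described below, AT2G19280 had a larger log2 difference than AT5G15280 (1.19 against 1.13). In 4 of the 5 genes every sample of 4-week-old plants lay above every sample of 1-week-old plants, and AT5G39980 was the exception. Across the array, 27.5% of the 2924 rows tested had ages that did not overlap with the older plants higher. The 5 genes were chosen by family name with their age difference already known, so the signals at both ages count as used in the choice. The differences are therefore a description without a test, and their number is not evidence about PPR genes as a family. In RNA from whole samples, a change in the share of cells that hold a transcript and a change in its amount per cell cannot be told apart.

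**Figure D1:**
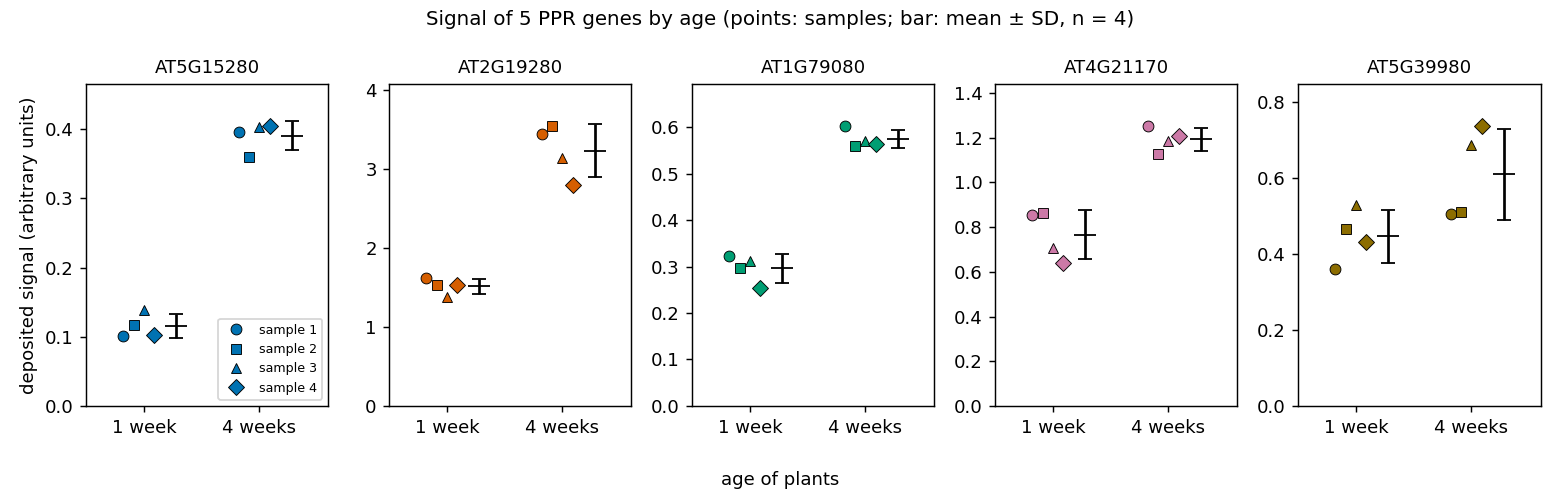
Deposited array signal (arbitrary units, 1 vertical scale per gene, each starting at 0) of the 5 PPR genes in the 4 samples of 1-week-old and the 4 of 4-week-old plants; marker shapes give the sample number, and the bars beside the points give mean ± SD (n = 4). The ages are separate in 4 genes and overlap in AT5G39980, where the highest 1-week sample reached 0.528 and the lowest 4-week sample 0.505.

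AT5G15280 had signals of 0.102, 0.117, 0.139 and 0.102 in 1-week samples 1 to 4. In 4-week samples 1 to 4 it had 0.396, 0.359, 0.402 and 0.405. The samples of each age were close together and far from those of the other age, and the lowest 4-week signal was 2.59 times the highest 1-week signal. The mean went from 0.115 ± 0.0175 to 0.391 ± 0.0213 (SD, n = 4), and the quantile-normalised log2 difference, 4 weeks minus 1 week, was 1.61 (SE 0.13). The row of this gene was in the third of the array with the lowest signal, where adding a constant to the values matters most. With a pseudocount of 0.0777, percentile 5 of all signals above 0, added before the logarithm, its log2 difference was 1.13.

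AT2G19280 had signals of 1.62, 1.53, 1.39 and 1.53 at 1 week. At 4 weeks it had 3.44, 3.55, 3.15 and 2.80. The ages did not overlap, and the 4-week samples 3 and 4 were below samples 1 and 2 of that age. The mean of the younger samples was 1.52 ± 0.0962 and that of the older ones 3.23 ± 0.337 (SD, n = 4), with a normalised log2 difference of 1.24 (SE 0.15), a fold of 2.36.

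AT1G79080 had the tightest older samples of the group. It gave 0.323, 0.297, 0.311 and 0.253 at 1 week. It gave 0.603, 0.558, 0.571 and 0.565 at 4 weeks. No sample of one age reached the range of the other. The mean was 0.296 ± 0.0306 in the younger and 0.574 ± 0.0199 in the older plants (SD, n = 4), a normalised log2 difference of 0.90 (SE 0.12), which is 1.86-fold.

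AT4G21170 had signals of 0.855, 0.861, 0.708 and 0.641 at 1 week. Its signals at 4 weeks were 1.25, 1.13, 1.18 and 1.21. Within the younger plants samples 3 and 4 were lower than samples 1 and 2, while the 4 older samples were alike. The ages were separated by a narrower gap than in the previous 3 genes, with the lowest 4-week signal 1.31 times the highest 1-week signal. The mean went from 0.766 ± 0.110 to 1.19 ± 0.0525 (SD, n = 4), a normalised log2 difference of 0.67 (SE 0.14) and a fold of 1.59.

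AT5G39980 was the gene with the smallest difference and with overlapping ages. Its signals were 0.361, 0.466, 0.528 and 0.432 at 1 week. At 4 weeks they were 0.505, 0.510, 0.685 and 0.737. The 4-week samples 1 and 2 lay below the highest 1-week sample, and only the 4-week samples 3 and 4 were above all of the younger plants. The mean was 0.447 ± 0.0698 in the younger and 0.609 ± 0.119 in the older plants (SD, n = 4), with a normalised log2 difference of 0.40 (SE 0.17).

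The standard errors depended on whether samples were blocked or averaged. By construction, neither step changes the log2 difference of a gene measured in all 8 samples. Between the 5 genes the standard error ran from 0.12 for AT1G79080 to 0.17 for AT5G39980 in the fit across all rows without a block. With the sample number as a block it ran from 0.095 for AT1G79080 to 0.13 for AT5G39980. When samples 1 and 2, and samples 3 and 4, were averaged within each age, which leaves fewer values per row, it ran from 0.21 for AT5G15280 to 0.26 for AT5G39980. With these averaged pairs as a block, an alternative chosen after seeing the data, it was between 0.20 and 0.21 for all 5. In limma the spread of each row is drawn towards a value shared by all rows, most strongly where few values are left. These similar errors therefore do not show a similar spread in the 5 genes.

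The shared numbering allowed a ratio of the older to the younger sample within each number. All 20 of these ratios were above 1, and they ran from 1.09 to 3.97. In the 4 genes whose ages did not overlap every ratio had to be above 1, so this count mostly repeats that separation. The share of all rows with every ratio above 1 was not computed. The 4 ratios of AT5G15280 were 3.89, 3.07, 2.90 and 3.97 for numbers 1 to 4, so that its lowest ratio exceeded the highest of every other gene in the group. Those of AT2G19280 were between 1.83 and 2.32, and those of AT1G79080 between 1.83 and 2.23. The ratios of AT4G21170 lay between 1.31 and 1.88, and those of AT5G39980 between 1.09 and 1.71. Number 4 gave the highest ratio in every gene except AT2G19280, where it gave the lowest. In these ratios AT5G15280 did not overlap with the rest, and the other neighbours in the order overlapped. With the pseudocount AT5G15280 was no longer the highest, with a log2 difference of 1.13 against 1.19 for AT2G19280.

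**Figure D2:**
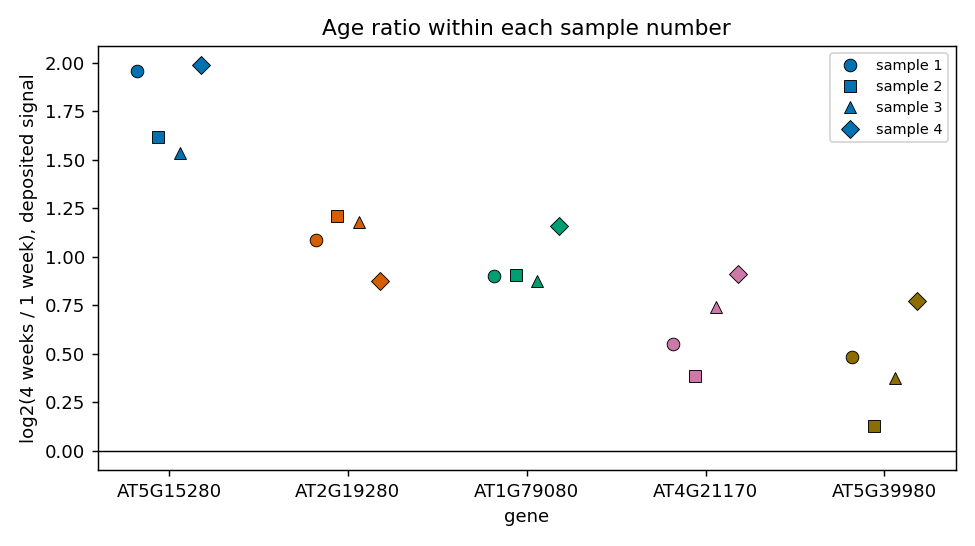
Log2 ratio of the deposited signal at 4 weeks to that at 1 week within each sample number (points, 4 per gene), with a line at 0 for equal signal. All 20 points lie above the line, which had to be so in the 4 genes whose ages did not overlap. The 4 points of AT5G15280 lie above those of the other genes, and the other genes overlap with their neighbours.

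Against the whole array, the differences of the 5 genes were spread over the upper part of the distribution. The median log2 difference was 0.16 over the 2924 rows tested, with quartiles of −0.40 and 0.58, and also 0.16 over the 588 rows that name a single gene. The median of the 5 genes was 0.90. AT5G15280 was at or above 96.7% of all rows tested, AT2G19280 93.2%, AT1G79080 86.7% and AT4G21170 79.6%. AT5G39980 was at or above 65.4%, below the upper quartile of the array. A log2 difference above 0 was found in 58.2% of all rows, and in all 5 genes.

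**Figure D3:**
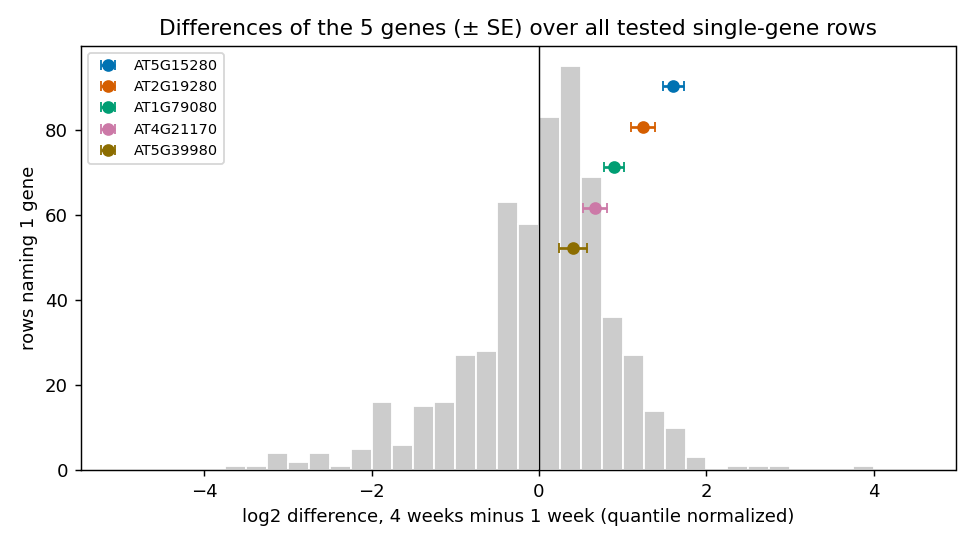
Histogram of the quantile-normalised log2 difference, 4 weeks minus 1 week, over the 588 tested rows that name a single gene (vertical axis: number of rows), with the 5 PPR genes as points ± SE at arbitrary heights. The 5 points run from 0.40 to 1.61, to the right of the median of 0.16.

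The spread between samples differed among the genes and between the ages. At 1 week the coefficient of variation was 6.34% for AT2G19280, 10.3% for AT1G79080 and between 14.3% and 15.6% for the other 3, against a median of 18.0% over 2814 rows measured in all samples. At 4 weeks it was 3.46% for AT1G79080, 4.40% for AT4G21170, 5.46% for AT5G15280 and 10.4% for AT2G19280, below the array median of 15.1%. AT5G39980 was above that median, at 19.6%.

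At 4 weeks both samples 3 and 4 of AT5G39980 were above both samples 1 and 2. The mean of samples 3 and 4 was 1.40 times that of samples 1 and 2, above the upper quartile of this ratio over the 2814 rows (quartiles 0.884 and 1.25). At 1 week the samples of the gene were not divided in this way, with sample 2 above sample 4, and its ratio of 1.16 was inside the quartiles of 0.800 and 1.30. AT2G19280 went the other way, with ratios of 0.850 at 4 weeks and 0.924 at 1 week. AT4G21170 had 0.786 at 1 week, below the lower quartile of 0.800, and 1.00 at 4 weeks. AT5G15280 had 1.10 and 1.07, and AT1G79080 had 0.909 and 0.977, at 1 week and 4 weeks. The 5 ratios thus had no common direction at either age.

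The likeness of 2 patterns was measured as the root mean square difference of their normalised log2 signals over the 8 samples, after each gene was centred on its own mean. By this measure the closest pair within the group was AT1G79080 and AT4G21170 (0.16), followed by AT2G19280 and AT1G79080 (0.23). The most distant pair was AT5G15280 and AT5G39980 (0.63). The 5 genes were not each other's closest matches. Of the single-gene rows outside the group that were measured in all 8 samples, 9 were nearer to AT1G79080 than AT4G21170 was, and 7 were nearer to AT5G15280 than AT2G19280 was. For AT2G19280, 197 such rows were nearer than AT5G39980.

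Each gene was compared with the 563 other tested single-gene rows measured in all 8 samples. The pattern nearest to AT5G15280 was that of AT2G27290 (0.23), followed by AT1G12800 and AT2G38070. The nearest to AT2G19280 was AT3G26580 (0.12), followed by LPA19, named for low accumulation of photosystem II, and AT2G46630. AT3G09250 was nearest to AT1G79080 (0.11), with AT4G22190 and again AT3G26580 after it. AT4G21170 had the closest match of all 5, AT3G06200 (0.058), whose own log2 difference was 0.75, and the next were AT1G74470 (0.11) and AT1G06730. AT5G11010 was nearest to AT5G39980 (0.098), before ATATH8 and AT5G17280. AT3G26580 was the 1 gene found among the 3 nearest of more than 1 PPR gene. These matches are a ranking over 8 samples that differ mainly by age.

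The 5 genes lie on 4 chromosomes, with AT5G15280 and AT5G39980 both on chromosome 5, and no 2 of them are neighbours. In the reference gene table, 3 of them overlap an adjacent gene. AT2G19280 overlaps AT2G19290, AT4G21170 overlaps ZAC, a gene of the ARF-GAP domain group, and AT5G39980 overlaps AT5G39970. The stretch and strand of a gene that the array detects are not stated in the labels or the table, so signal from the overlapping neighbour cannot be told apart in these 3. AT5G15280 and AT1G79080 overlap no neighbour. None of the 10 adjacent genes had a row of its own on the array as a single named gene.

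Other genes of organelle gene expression were looked for around the PPR genes. Of 46 genes in 6 lists (polymerases and sigma factors, the plastid transcription complex, intron splicing, ribonucleases, ribonucleoproteins and MORF editing factors), 0 had a row naming that gene alone. The same held for 18 markers of leaf, root, flower, senescence and cell division, so the organs in the samples could not be checked with them. Rows that name several genes were not searched. No other gene is called a PPR gene in the annotation text. That text gives no product names, so the search could not find PPR genes listed only by a locus code. The reference table does name further organelle factors, and 4 of them, not necessarily all, were picked after the gene names of the array were seen. They are OTP70 and OTP85 (organelle transcript processing) and CRR21 (chlororespiratory reduction), all of the PLS class, and mTERF9, of a family related to mitochondrial transcription termination factors.

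Of these 4 genes, 3 could be tested, of which 1 fell, 0 rose and 2 did not pass. The list was chosen with earlier results of these data known, so the p-values are a description and not independent evidence. CRR21, which acts in editing of a plastid transcript for the NAD(P)H dehydrogenase complex, ran from 0.807 to 1.42 at 1 week and from 0.292 to 0.543 at 4 weeks. Its ages did not overlap, in the direction opposite to that of the P-class genes. The mean went from 1.07 ± 0.307 to 0.399 ± 0.113 (SD, n = 4), and limma gave an adjusted p of 0.00141 for a log2 difference of −1.43 (SE 0.23), which is 2.70-fold lower at 4 weeks. Over the array, 45.7% of rows were past the threshold in either direction, and 19.2% had ages that did not overlap with the older plants lower. The call was lost when samples 1 and 2, and samples 3 and 4, were averaged, at an unchanged log2 difference (limma adjusted p = 0.0580). It held with these averaged pairs as a block (limma adjusted p = 0.00374), an alternative chosen after seeing the data. That fit leaves little to estimate the spread of the row itself, so it does not offset the lost call. Over the 18 alternatives, which share samples, CRR21 was past the threshold in 17, and the limma adjusted p ran from 0.000675 to 0.0580.

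The signal of OTP70 was 0.711 ± 0.0750 in the younger and 0.827 ± 0.0265 in the older plants (SD, n = 4), and its ages did not overlap, by the narrow gap from 0.800 to 0.808. Its log2 difference was 0.22 (SE 0.11) and did not pass, with a limma adjusted p of 0.130, and of 0.0623 to 0.493 under the alternatives. mTERF9 had means of 1.56 ± 0.479 and 1.12 ± 0.109 (SD, n = 4), and its difference of −0.36 on the log2 scale (SE 0.19) did not pass either, with a limma adjusted p of 0.155. It passed with samples 3 and 4 of both ages alone (limma adjusted p = 0.0223), within a range of 0.0223 to 0.441. OTP85 was listed at 0 in all samples of 1-week-old plants and in 3 of the 4 of 4-week-old plants, and was not tested. These p-values measure only the spread between the deposited samples, which may be technical. Whether the P-class genes differ from these factors in their response to age was not tested.

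The direction of the 5 P-class differences was the same under each of the 18 alternatives that measured them. AT5G15280 ran from 1.13 to 1.77 on the log2 scale, AT2G19280 from 1.04 to 1.35, AT1G79080 from 0.74 to 0.96, AT4G21170 from 0.50 to 0.84 and AT5G39980 from 0.29 to 0.51. The ranges of AT5G15280 and AT2G19280 overlapped, as did those of AT1G79080 and AT4G21170 and those of AT4G21170 and AT5G39980.

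**Figure D4:**
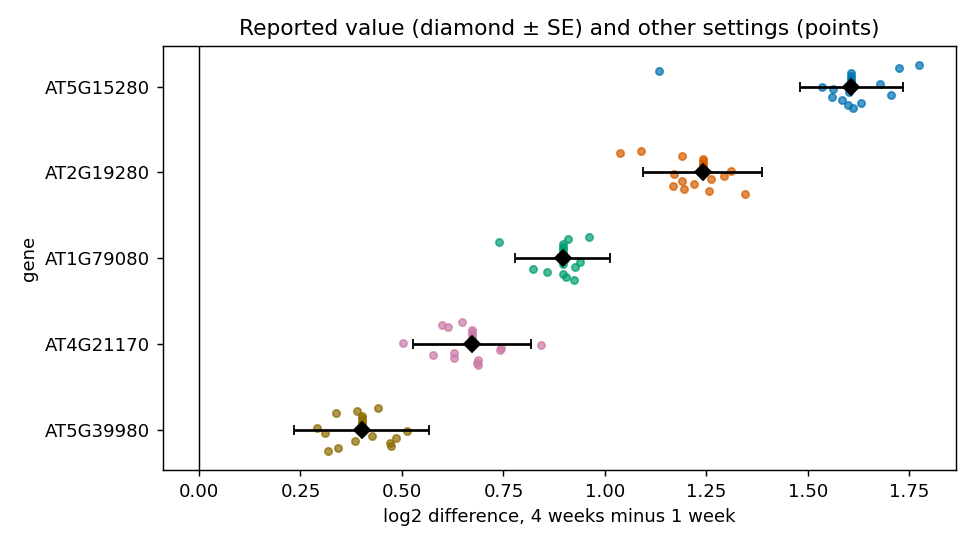
Log2 difference, 4 weeks minus 1 week, of the 5 PPR genes under the reported setting (diamond ± SE) and under each alternative (points, spread vertically for visibility). All points lie to the right of 0, and the lowest point of AT5G15280, at 1.13, is the setting with a pseudocount.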

How the data were processed

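The deposited table holds 1 array intensity per row and sample on a linear scale, and the labels do not state how the authors scanned, corrected and scaled it. Rows were named from the platform annotation and updated through a RefSeq gene table (TAIR10.1), used for names, chromosomes and neighbouring or overlapping genes; no coordinates are printed because the build of the array is not stated. Of 3439 rows, 692 name 1 gene, 870 several and 1877 none here.

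The log2 of each value was taken, 0 being treated as missing, and arrays were quantile normalised. A row needed 3 measured samples per age, and 2 rows at the highest value in all samples were left out, which left 2924. Each row was fitted with limma 3.58.1 in R 4.3.3, 4 weeks minus 1 week, with Benjamini-Hochberg adjustment over all rows and a threshold of 0.05. The script was tested on simulated data with independent noise in each sample. That check does not cover spread shared between samples. Signals printed with an SD are deposited values.

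The members and lists were chosen with earlier results of these data known. Named genes were the 5 members, any tested genes of the lists and, per member, the 3 single-gene rows of nearest pattern. The block by sample number comes from the data: deviations from the age means correlated at 0.425 to 0.527 between same-numbered samples and at −0.419 to 0.397 otherwise. Differently numbered samples had 0.180 to 0.397 within samples 1 and 2 or within samples 3 and 4. Between these sets they had −0.419 to −0.351. The 18 alternatives cover normalization, zeros, dim rows, missing values, blocks, pairs and left-out samples. The number of arrays limits the precision. No sequences were used.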

Additional observations from a re-analysis of the deposited data

Results flagged for a closer look

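In the organelle editing gene OTP85, 4-week sample 1 stood apart from the other samples of its age: it had a signal of 0.0242 and the others were listed at 0, so its gap to the nearest sample was the whole range of the group (ratio of gap to range 1, against a critical value of 0.829 for 4 samples). With the other 3 values at 0, any signal above 0 gives this ratio, so it carries no weight, and the usual chance of about 1 in 20 groups does not apply. No age group of the 5 P-class PPR genes exceeded that value, and the nearest to it was AT5G15280 at 4 weeks (0.802), where sample 2 was the lowest.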

How the results depend on the processing

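On the values as deposited the log2 difference of AT5G15280 was 1.77, and with a pseudocount of 0.0777 it was 1.13 and that of AT1G79080 0.74. The pseudocount also brought rows with values at 0 into the fit, and the median over all rows was 0.03. After median centring AT2G19280 had 1.04. The other differences of the 5 genes moved by less than 1 SD between replicates. Leaving out 1 sample at a time gave 1.56 to 1.70 for AT5G15280, 1.17 to 1.35 for AT2G19280, 0.82 to 0.94 for AT1G79080, 0.58 to 0.74 for AT4G21170 and 0.31 to 0.48 for AT5G39980. AT5G15280 was not measured without the third of rows with the lowest signal. The count of 1337 rows past the threshold was 400 with samples 1 and 2, and 3 and 4, averaged. That fit has fewer values per row than the reported one. The count was 1060 when the fit of the same averages also allowed for a level shared within each pair of sample numbers. This second fit has as few values per row, leaves little to estimate the spread of a row, and was chosen after seeing the data. Why the 2 counts differ was not tested. With the sample number as a replicate block the count was 1656. The block leaves the difference of AT5G39980 at 0.40 by construction (SE 0.13). The search of the annotation text found no other PPR gene, and no gene of the 6 organelle lists had a row of its own. Neither therefore gave a value under any setting. The separate list of OTP70, OTP85, CRR21 and mTERF9 is given in the report.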
